A study of Mus musculus with 6 samples.

Results

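Integrins and laminins were examined in mouse embryonic fibroblasts (MEFs) with and without Rnf40. The members were chosen by name, as every gene of the deposited table whose symbol is that of an integrin alpha chain, an integrin beta chain or a laminin alpha, beta or gamma chain, which gave 37 of 29955 genes, and 36 of them are described (18 integrin alpha, 8 integrin beta and 10 laminin chains). RNA was sequenced from 3 libraries labelled Rnf40+/+ and 3 labelled Rnf40-/-, all from MEFs at passage 3. The deletion was induced by 5 days in 250 nM 4-hydroxytamoxifen (4-OHT), followed by 3 days of growth in its absence. The study made its inducible MEFs from homozygous Rnf40 loxP/loxP embryos that carry a tamoxifen-inducible Cre (CreERT2) at the ubiquitously expressed Rosa26 locus, and 4-OHT removes exons 3 and 4 of Rnf40. Whether the Rnf40+/+ cells sequenced here carried the Cre or saw 4-OHT is not stated in its methods, so deletion and treatment cannot be told apart. The labels do not say whether the libraries of a genotype came from separate embryos or cultures, and p values measure only the spread between these libraries, which may be technical.

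RNF40 is one of the paired E3 ligases that place ubiquitin on histone H2B. Integrins are receptors of the cell surface made of 1 alpha and 1 beta chain, and the pair of chains decides which matrix protein is bound. Laminins are trimers of 1 alpha, 1 beta and 1 gamma chain that polymerize into the basement membrane, the sheet of matrix under epithelia and around muscle, fat and nerve cells. The laminin alpha chain carries the main site for integrins, and the classical laminin receptors are α3β1, α6β1, α7β1 and α6β4. Fibroblasts are known mainly for integrins that bind fibronectin and collagens.

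The table holds normalized counts, in which the reads of a gene were scaled by a size factor of the library. The libraries held between 17053436 and 26344170 reads on genes, of which the 36 genes took 0.708% to 0.801%. The limit of detection was set at 3 reads, which correspond to 2.40 to 3.58 normalized counts. Rnf40 itself gave 1278, 1195 and 1096 normalized counts in Rnf40+/+ and 439, 519 and 487 in Rnf40-/- MEFs, a log2 fold change of -1.30 ± 0.09 (SE; adjusted p = 4.25e-07). These counts cover the whole transcript, of which the deletion removes only 2 exons. Here and below, log2 fold changes are Rnf40-/- minus Rnf40+/+ on log2(normalized count + 1), and adjusted p values come from limma, corrected by Benjamini-Hochberg across the 16378 genes tested. For genes with few reads the change is understated by the added 1. The fibroblast markers were abundant in each library, with a summed level of 10 markers of 369313 to 428246 normalized counts in Rnf40+/+ and 195529 to 209542 in Rnf40-/- MEFs. Most of this sum was Col1a1, Col1a2 and Vim, and Col1a2 fell most, from 116406 ± 11237 to 24166 ± 404 (SD, n = 3 each). Of the 10 markers 8 were lower in Rnf40-/-, where 24.1% of all genes tested were lower, and Dcn and Lum were not called.

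Of the 36 genes, 33 had enough reads to be tested. At an adjusted p below 0.05, 13 were higher and 10 lower in Rnf40-/- MEFs, while 10 were not called. Over all genes tested, 23.3% were higher and 24.1% lower by the same threshold, so that changed genes were common outside the 2 families as well. Of 10 laminin chains 8 were higher and 2 lower, and of 23 integrin chains tested 5 were higher, 8 lower and 10 not called. The median log2 fold change was 0.85 for the laminins, -0.19 for the integrins tested and -0.0035 for all genes tested. A log2 change above 1 as well as an adjusted p under 0.05 was found for 8 higher and 3 lower members, against 5.13% and 5.72% of all genes tested. The libraries of the 2 genotypes did not overlap for 11 higher and 10 lower members, or 33.3% and 30.3% of the 33 tested, which is near the 27.8% and 28.7% of all genes tested. Of the 13 higher genes, 5 (Itgb6, Itgb7, Lama3, Lamb3 and Lamc3) passed the filter on low reads only through their Rnf40-/- libraries, so that they were tested only because of the group in which they were high. All 5 were among the 8 higher members with a log2 change above 1, as was Itga3, whose call was not stable (below). The 8 are therefore not read as an excess over the 5.13% of all genes tested. Lama3, Lamb3 and Lamc3 also enter the count of higher laminins and the laminin median, so neither is read as an excess in that family.

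**Figure D1:**
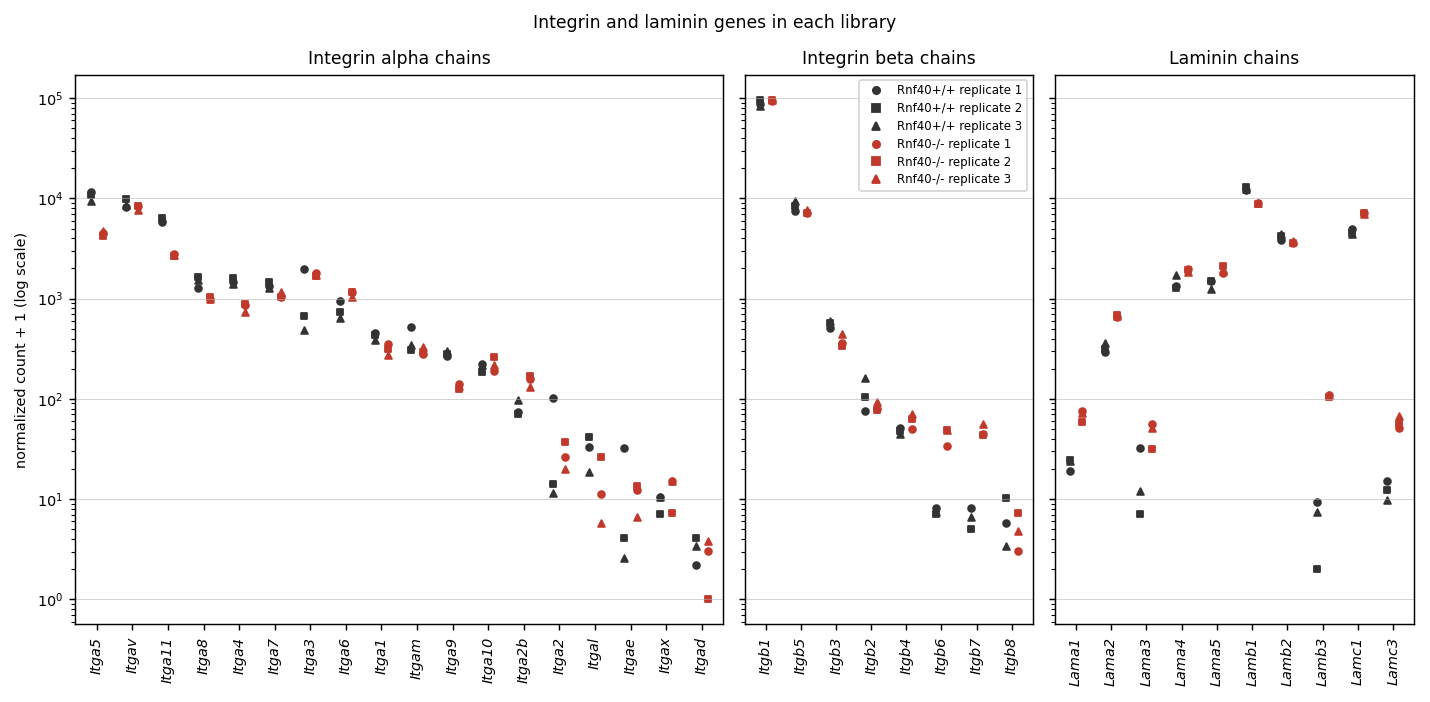
Normalized counts (plus 1, log axis) of the 36 integrin and laminin genes, with 1 point per library (black, Rnf40+/+; red, Rnf40-/-; marker shape gives the replicate number). Integrin chains are ordered by their Rnf40+/+ mean, and the Rnf40-/- points of Itga5 and Itga11 lie below, and those of Lamb3, Lamc1 and Itgb7 above, every Rnf40+/+ point.

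**Figure D2:**
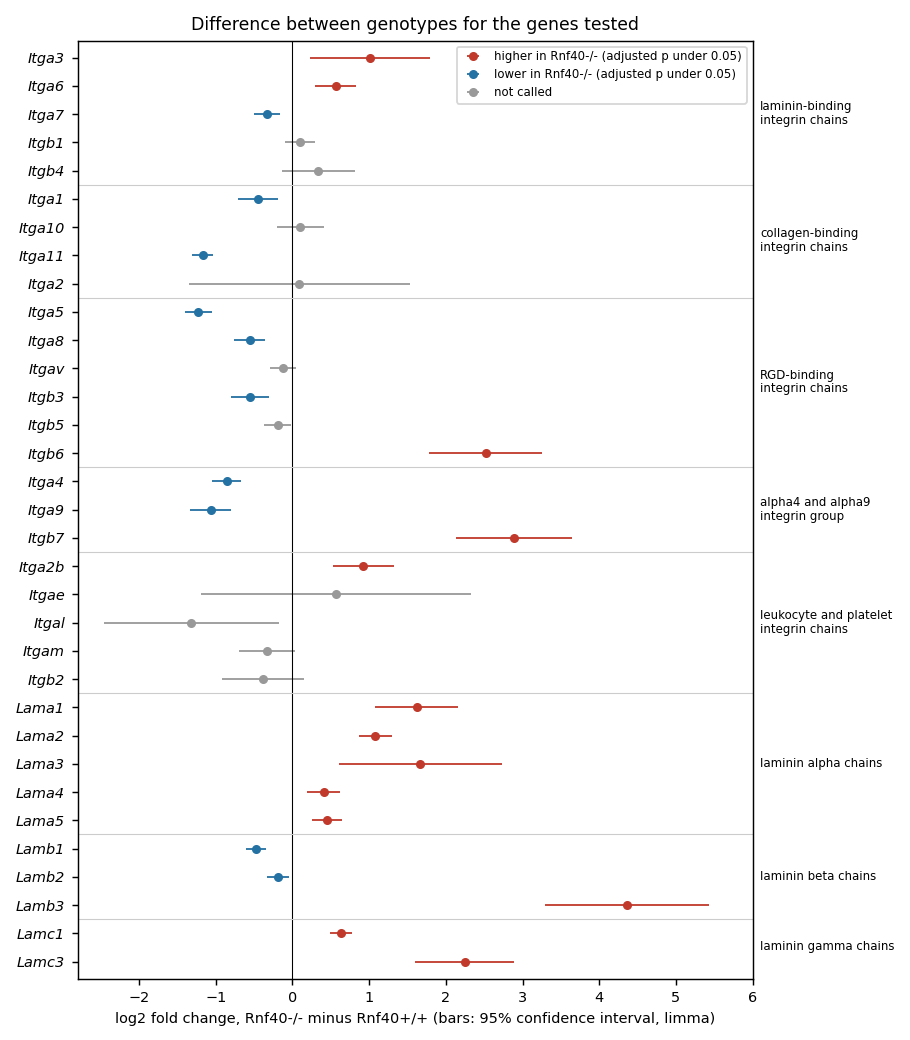
Log2 fold change (Rnf40-/- minus Rnf40+/+) of the 33 genes tested, grouped by role, with 95% confidence intervals from limma. Red points are higher, blue points lower and grey points not called at an adjusted p of 0.05, with Lamb3 (4.37) at the upper end and the uncalled Itgal (-1.32) at the lower end.

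Laminin chains made up 8 of the 13 higher genes, among them Lama3, Lamb3 and Lamc3, which were tested only because of their Rnf40-/- libraries. All 5 alpha chains and the gamma chains Lamc1 and Lamc3 were higher in Rnf40-/- MEFs, and among the beta chains Lamb3 was higher while Lamb1 and Lamb2 were lower. The log2 fold change exceeded 1 for Lama1, Lama2, Lama3, Lamb3 and Lamc3 and lay between 0.41 and 0.63 for the abundant Lama4, Lama5 and Lamc1.

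Lama1 (ENSMUSG00000032796, chromosome 17 of mm9, 68046605 to 68171985), the alpha chain of the early embryonic basement membrane, had 17.9, 23.5 and 23.2 normalized counts in Rnf40+/+ and 75.5, 57.4 and 71.8 in Rnf40-/- libraries. Its log2 fold change was 1.62 ± 0.25 (SE; adjusted p = 0.000212), and the lowest Rnf40-/- library stood well above the highest Rnf40+/+ library. Lama2 (ENSMUSG00000019899, chromosome 10 of mm9, 26701094 to 27336748), the alpha chain of the laminin around muscle fibers and Schwann cells, had 291, 310.0 and 361 normalized counts in Rnf40+/+ libraries and 659.7, 693 and 675 in Rnf40-/- libraries, a log2 fold change of 1.08 ± 0.10 (SE; adjusted p = 3.76e-06). The level of Lama2 thus about doubled (2.11-fold), and its 3 Rnf40-/- libraries had an SD of 16.6. Lama4 (ENSMUSG00000019846, chromosome 10 of mm9, 38685321 to 38829994), a chain of vascular and adipose basement membranes, showed 1339.9, 1288 and 1715 normalized counts against 1972, 1915 and 1829, and Lama5 (ENSMUSG00000015647, chromosome 2 of mm9, 179911078 to 179960564), the widely expressed alpha chain of mature basement membranes, showed 1496, 1498 and 1247 against 1792, 2128 and 1869.5. Their log2 fold changes were 0.41 ± 0.10 (SE; adjusted p = 0.00477) for Lama4 and 0.45 ± 0.09 (SE; adjusted p = 0.00149) for Lama5, and neither gene overlapped between the genotypes.

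Lama3 (ENSMUSG00000024421, chromosome 18 of mm9, 12492533 to 12741522), the alpha chain of laminin-332, the laminin that anchors epidermis to dermis, was the alpha chain with the lowest normalized counts. Its 3 Rnf40+/+ libraries had 31.1, 6.12 and 11.2 normalized counts and its Rnf40-/- libraries 55.1, 30.3 and 50.0, so that Rnf40+/+ replicate 1 was above the lowest Rnf40-/- library. The log2 fold change was 1.67 ± 0.48 (SE; adjusted p = 0.0135). It was 2.26 ± 0.39 (SE; adjusted p = 0.000397) without Rnf40+/+ replicate 1, and its call was lost without Rnf40+/+ replicate 2 (1.18, adjusted p = 0.0618) and without Rnf40-/- replicate 1 or 3 (adjusted p = 0.0588 and 0.0567 from limma).

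Among the beta chains, Lamb1 (ENSMUSG00000002900, chromosome 12 of mm9, 31950099 to 32014509) is the usual partner in the laminins of fibroblasts and had 12086, 12895 and 12319.5 normalized counts in Rnf40+/+ and 8913, 8887 and 8958 in Rnf40-/- libraries. Its level fell to 71.7% of the Rnf40+/+ mean, a log2 fold change of -0.48 ± 0.06 (SE; adjusted p = 5.32e-05). The table holds a further row named Lamb1-1, which RefSeq lists as a synonym of Lamb1 and which is no member by the rule. How reads of the gene were divided between both rows is not given in the sources used here. This row had 1151, 1151 and 979 normalized counts in Rnf40+/+ and 956, 872 and 753 in Rnf40-/- libraries (log2 fold change -0.35, adjusted p = 0.0123 from limma), and the sum of both rows went from 13527 ± 450.5 to 9779.5 ± 81.6 (SD, n = 3 each), or 72.3% of the Rnf40+/+ mean. Lamb2 (ENSMUSG00000052911, chromosome 9 of mm9, 108382193 to 108392861), the beta chain of the neuromuscular junction and the kidney glomerulus, had 3865, 4180.0 and 4423 normalized counts against 3612, 3595 and 3747. Its fall was small, with a log2 fold change of -0.18 ± 0.07 (SE; adjusted p = 0.0374), and in 5 of the 6 fits with 1 library left out it did not pass the threshold (adjusted p from 0.0586 to 0.128 from limma in those fits).

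Lamb3 (ENSMUSG00000026639, chromosome 1 of mm9, 195128151 to 195170072), the beta chain of laminin-332, changed most among the members. The Rnf40+/+ libraries held 8.36, 1.02 and 6.39 normalized counts of it, from 7, 1 and 8 reads, and the Rnf40-/- libraries 107, 102 and 109, from 105, 98 and 115 reads. The log2 fold change was 4.37 ± 0.49 (SE; adjusted p = 1.95e-05), with a confidence interval of 3.30 to 5.43, and it ranged from 3.68 to 4.79 with 1 library left out. Its size depends on the count added before the log, and it was 4.75 with 0.1 and 2.96 with 10 in place of 1. The 3 Rnf40-/- libraries had an SD of 3.29 normalized counts and all stood more than 10 times above the highest Rnf40+/+ library.

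Both Lamc1 and Lamc3 rose. Lamc1 (ENSMUSG00000026478, chromosome 1 of mm9, 155066052 to 155179916), the gamma chain of nearly all laminins, had 4957, 4513 and 4404 normalized counts in Rnf40+/+ and 7208, 7208 and 7022 in Rnf40-/- libraries, a log2 fold change of 0.63 ± 0.06 (SE; adjusted p = 9.85e-06). Lamc3 (ENSMUSG00000026840, chromosome 2 of mm9, 31742811 to 31802059), a gamma chain found in brain, retina and testis, was low in Rnf40+/+ MEFs with 14.3, 11.2 and 8.78 normalized counts and had 50.0, 55.3 and 67.0 in Rnf40-/- MEFs (log2 fold change 2.25, standard error 0.30, adjusted p = 7.49e-05 from limma). Neither gene overlapped between the genotypes.

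Sequences upstream of the start site are shown for a laminin chain that about doubled from a readily measured level, Lama2, and for the one with the largest change, Lamb3. They are the 250 bases before a RefSeq start in GRCm38.p6, read on the strand of the gene, at chr10:27616943-27617192 (minus strand) and chr1:193301744-193301993 (plus strand, the upstream one of the 2 starts listed). Capitals mark matches on either strand to 5 motifs. The GC box was searched as GGGCGG and the site of TEAD factors as GGAATG. The TATA box was searched as TATAAA, the AP-1 site with its outer bases TGA and TCA around any base, and the CArG box of the serum response factor in its usual form.
Lama2: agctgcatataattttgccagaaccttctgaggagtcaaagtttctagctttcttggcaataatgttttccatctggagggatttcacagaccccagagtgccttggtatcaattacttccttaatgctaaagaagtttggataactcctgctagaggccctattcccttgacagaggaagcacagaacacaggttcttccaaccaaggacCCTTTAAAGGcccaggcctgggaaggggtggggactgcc
Lamb3: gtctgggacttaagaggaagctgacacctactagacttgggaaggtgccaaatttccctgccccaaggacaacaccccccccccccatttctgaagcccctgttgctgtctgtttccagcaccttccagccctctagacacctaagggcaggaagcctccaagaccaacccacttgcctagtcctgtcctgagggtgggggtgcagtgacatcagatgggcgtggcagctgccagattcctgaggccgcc

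Lama2 had a CArG box with its near end 30 bases before the start, and the window of the upstream start of Lamb3 held none of the motifs, while that of its other start (chr1:193301993-193302242) held a TEAD site 162 bases upstream. Of all 32817 RefSeq starts, 1.47% had a CArG box in the same 250 bases, 32.7% a GC box, 6.75% an AP-1 site, 12.6% a TEAD site and 12.4% a TATA box. The motifs were chosen with the values known, and a match is a description of the letters that was not tested as a binding site.

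For chains that share a trimer, levels were compared per length, as the normalized count per kb of the longest coding transcript annotated in mm9 (GENCODE M1). On this scale the order of different genes shifts with the transcript length chosen, while the change of a single gene does not. Summed over a chain class, the alpha chains had a level of 388, 379.6 and 434 per kb in Rnf40+/+ and 565, 584 and 549 per kb in Rnf40-/- libraries. The beta chains went the other way, from 2779, 2973 and 2918 to 2209, 2201 and 2241 per kb. Transcripts of Lamb1 exceeded those of Lamc1 per kb by 3.55 ± 0.299 in Rnf40+/+ and by 1.65 ± 0.0313 in Rnf40-/- MEFs (ratio, SD, n = 3 each), and the libraries of both genotypes did not overlap in this ratio, which was chosen after the values were seen. No p is given for the ratios, because for 3 libraries per genotype a single value cannot reach below p = 0.1 in an exact permutation test. Adding the row Lamb1-1 to Lamb1 left the ratio of Rnf40-/- to Rnf40+/+ nearly as it was (0.466 against 0.463).

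Within the alpha class, Lama4 held 59.5% ± 5.08 of the level per kb in Rnf40+/+ and 55.7% ± 1.83 in Rnf40-/- MEFs, and Lama5 held 31.3% ± 5.22 and 29.9% ± 2.07, differences that were within the spread of the Rnf40+/+ libraries. The share of Lama2 went from 8.24% ± 0.442 to 12.3% ± 0.33 without overlap of the libraries. In the beta class Lamb1 remained the leading chain with 74.4% ± 1.22 and 69.6% ± 0.398. The chains Lama3 and Lamb3 stayed a small part of their classes in both genotypes, with 26.2, 25.0 and 26.5 per kb for Lamb3 and 5.32, 2.93 and 4.84 per kb for Lama3 in the Rnf40-/- libraries against 1541, 1536 and 1549 per kb for Lamb1.

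**Figure D3:**
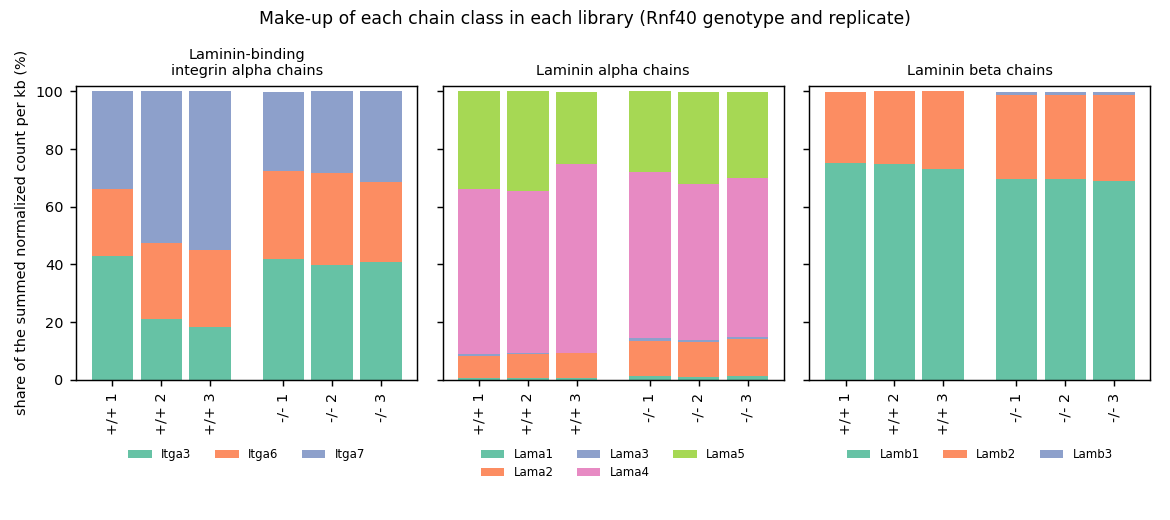
Share of each gene in the summed normalized count per kb of its chain class (y axis, %), in each of the 6 libraries (x axis, Rnf40 genotype and replicate). Itga3 takes 43.0, 21.2 and 18.3% of the laminin-binding integrin alpha chains in the 3 Rnf40+/+ libraries and 41.8, 39.9 and 41.0% in Rnf40-/-, whereas the beta class keeps Lamb1 as the main chain in all 6.

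The receptor chains that pair with laminins did not move as 1 group. Of the 5 chains, Itga6 and Itga3 were higher, Itga7 was lower, and Itgb1 and Itgb4 were not called. Itga6 (ENSMUSG00000027111, chromosome 2 of mm9, 71583673 to 71696473), the alpha chain of α6β1 and of the hemidesmosome receptor α6β4, had 942, 733 and 633 normalized counts in Rnf40+/+ and 1172, 1169 and 1037 in Rnf40-/- libraries, a log2 fold change of 0.57 ± 0.12 (SE; adjusted p = 0.0025). Itga7 (ENSMUSG00000025348, chromosome 10 of mm9, 128370869 to 128395333), the laminin receptor of skeletal and smooth muscle, had 1348, 1452 and 1288 against 1047, 1035 and 1163, a log2 fold change of -0.33 ± 0.08 (SE; adjusted p = 0.00359). The genotypes did not overlap in either gene.

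Itga3 (ENSMUSG00000001507, chromosome 11 of mm9, 94905788 to 94938115), which pairs with Itgb1 and binds laminin-332 and the laminins with Lama5, varied among the Rnf40+/+ libraries, with 1959.7, 667 and 490.3 normalized counts, and was uniform in Rnf40-/- libraries at 1811, 1663 and 1735. Rnf40+/+ replicate 1 was 3.39-fold above the mean of the other Rnf40+/+ libraries and above every Rnf40-/- library. With all libraries the log2 fold change was 1.01 ± 0.36 (SE; adjusted p = 0.0355). Without Rnf40+/+ replicate 1 it was 1.60 ± 0.11 (SE; adjusted p = 2.12e-07), and with any of the other 5 libraries left out the gene was not called (adjusted p from 0.0851 to 0.159 from limma). The call was also absent with the quasi-likelihood test of edgeR (log2 fold change 0.76, adjusted p = 0.126) and the Wald test of DESeq2 (0.74, adjusted p = 0.336).

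The same library stood apart in other chains. Itga2, a collagen and laminin receptor chain of platelets and epithelia, had 100.3, 13.3 and 10.4 normalized counts in Rnf40+/+ and 25.5, 36.5 and 18.9 in Rnf40-/- libraries, and Itgae, the partner of Itgb7 on T cells of epithelia, had 31.1, 3.06 and 1.60 and 11.2, 12.5 and 5.67. Neither was called with all libraries (log2 fold change 0.09, adjusted p = 0.924, and 0.57, adjusted p = 0.592 from limma). Without Rnf40+/+ replicate 1 their log2 fold changes were 1.09 ± 0.39 (SE; adjusted p = 0.0386) and 1.67 ± 0.64 (SE; adjusted p = 0.0495). As this library was singled out for its high values in these genes, its removal raises their change by construction, and no rise is read from these fits. Without Rnf40+/+ replicate 3 the changes were -0.49 and -0.14. Itgae had only 3 and 2 reads in Rnf40+/+ replicates 2 and 3. In this library 1.66% of the genes with a Rnf40+/+ mean above 15 were more than 2-fold above the mean of the other Rnf40+/+ libraries, against 0.157% and 1.47% for Rnf40+/+ replicates 2 and 3. The skeletal muscle markers were also highest there, with a sum over 7 markers of 4887, 2034 and 1712 normalized counts in Rnf40+/+ against 498, 438 and 487 in Rnf40-/- MEFs, nearly all of it Acta1 and Des, while Myod1 was at 0 in all libraries. The part of these transcripts in the levels of Itga7 or Itga3 was not tested.

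Itgb1 (ENSMUSG00000025809, chromosome 8 of mm9, 131209554 to 131257100), the beta chain shared by most matrix receptors, was by far the most abundant member with 87923, 96364 and 83191 normalized counts in Rnf40+/+ and 93462, 96816 and 95214 in Rnf40-/- libraries. Its log2 fold change was 0.10 ± 0.09 (SE; adjusted p = 0.411) with a confidence interval of -0.10 to 0.30. Per length it made up 89.1% ± 1.55 and 90.9% ± 0.436 of all integrin beta chain transcripts (SD, n = 3 each). Itgb4 (ENSMUSG00000020758, chromosome 11 of mm9, 115836023 to 115869726), the beta chain of hemidesmosomes, had 50.2, 46.9 and 43.1 normalized counts against 48.9, 61.6 and 68.9, with a log2 fold change of 0.34 ± 0.22 (SE; adjusted p = 0.223) and an interval of -0.14 to 0.81. The transcripts of Itga6 exceeded those of Itgb4 per kb 23.6-fold ± 3.09 in Rnf40+/+ and 27.8-fold ± 6.42 in Rnf40-/- MEFs (SD, n = 3 each), and the ranges overlapped.

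Receptor and ligand chains were then set side by side. The 3 laminin-binding alpha chains Itga3, Itga6 and Itga7 had a summed level of 938, 648 and 550.3 per kb in Rnf40+/+ and 890.3, 856 and 871 per kb in Rnf40-/- libraries. Divided by the summed laminin alpha chains, this gave 2.42, 1.71 and 1.27 in Rnf40+/+ and 1.58, 1.47 and 1.59 in Rnf40-/- libraries, and the Rnf40-/- values lay inside the Rnf40+/+ range. The ratio of the 2 genotype means was 0.858 with all libraries and 1.04 without Rnf40+/+ replicate 1, so that no direction can be given. The make-up of the receptor side was also read, as the share of each chain in this sum. Itga7 took 33.7, 52.6 and 55.0% of the 3 alpha chains in Rnf40+/+ and 27.6, 28.4 and 31.4% in Rnf40-/- libraries, without overlap, while Itga6 took 23.3, 26.2 and 26.7% and 30.5, 31.7 and 27.6%, also without overlap. As parts of 1 sum, these shares also depend on Itga3. Its own share overlapped, with 43.0, 21.2 and 18.3% in Rnf40+/+ and 41.8, 39.9 and 41.0% in Rnf40-/- libraries.

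**Figure D4:**
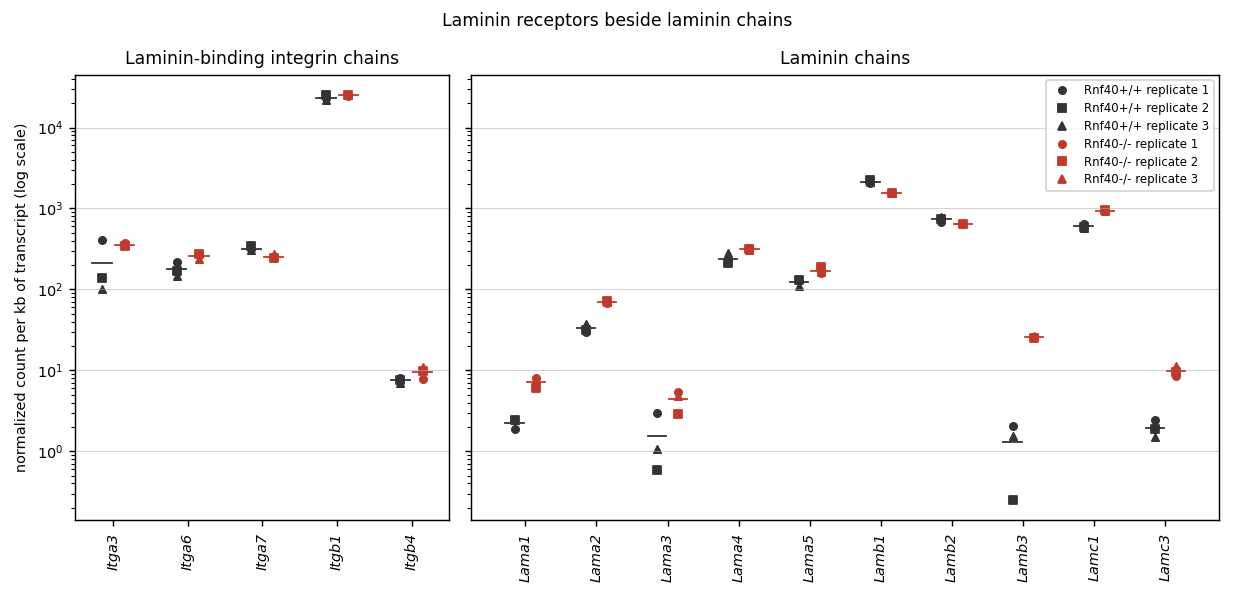
Normalized count per kb of transcript (log axis) of the laminin-binding integrin chains (left) and the laminin chains (right), with 1 point per library (black, Rnf40+/+; red, Rnf40-/-) and a line at each mean. Lamc1 and Lamc3 lie higher and Lamb1 and Lamb2 lower in Rnf40-/- MEFs, Itgb1 does not separate by genotype, and Itga3 has 1 Rnf40+/+ library above all Rnf40-/- points.

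Of 7 integrin chains that bind fibronectin and other ligands with an RGD sequence, 6 were tested. Itga5, Itga8 and Itgb3 were lower, Itgb6 was higher, and Itgav and Itgb5 were not called. Itga5 (ENSMUSG00000000555, chromosome 15 of mm9, 103174720 to 103197194), the alpha chain of the fibronectin receptor α5β1, had 11561, 10818 and 9447 normalized counts in Rnf40+/+ and 4549, 4241 and 4758 in Rnf40-/- libraries. Its log2 fold change was -1.23 ± 0.08 (SE; adjusted p = 2.98e-07), and every Rnf40-/- library was below the lowest Rnf40+/+ library by a wide margin. Per kb of the longest coding transcript, Itga5 was the leading integrin alpha chain of Rnf40+/+ MEFs with 38.3% ± 1.63 of the class, and in Rnf40-/- MEFs it held 25.2% ± 1.48 against 28.1% ± 1.21 for Itgav (SD, n = 3 each). Itgav stood above Itga5 in every Rnf40-/- library, though in replicate 3 by 26.8% against 26.7%. This order rests on the length used, since with all annotated exons as length, an alternative added after seeing the data, Itga5 led in both genotypes, with 30.4% ± 1.52 against 22.3% ± 1.15 for Itgav in Rnf40-/- MEFs. Itgav (ENSMUSG00000027087, chromosome 2 of mm9, 83564554 to 83647073), the alpha chain of the vitronectin receptors, had 8213, 9789.7 and 8664 normalized counts against 8351, 8366 and 7679, with a log2 fold change of -0.13 ± 0.08 (SE; adjusted p = 0.198) and an interval of -0.29 to 0.04.

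Itga8, a receptor of nephronectin in the developing kidney, went from 1493 ± 193 to 1009 ± 31.5 normalized counts (log2 fold change -0.56, adjusted p = 0.000381 from limma), and Itgb3, the partner of Itgav in osteoclasts and endothelium and of Itga2b in platelets, from 557 ± 46.7 to 381 ± 55.1 (log2 fold change -0.55, adjusted p = 0.00178 from limma; SD, n = 3 each). Itgb5, a further partner of Itgav, had 8380.1 ± 906 and 7311 ± 324 normalized counts and a log2 fold change of -0.19 that did not pass (adjusted p = 0.0682 from limma). The change was -0.27 ± 0.08 (SE; adjusted p = 0.0128) without Rnf40+/+ replicate 1 and -0.11 (adjusted p = 0.201 from limma) without Rnf40+/+ replicate 3. Itgb6 (ENSMUSG00000026971, chromosome 2 of mm9, 60436349 to 60560700), an epithelial partner of Itgav that activates TGF-beta, had 7.17, 6.12 and 6.39 normalized counts in Rnf40+/+ libraries and 32.6, 48.0 and 48.2 in Rnf40-/- libraries, a log2 fold change of 2.52 ± 0.34 (SE; adjusted p = 8.02e-05). Its level remained far below that of Itgb5, with 6.79, 9.99 and 10.0 per kb against 2319, 2293 and 2486 per kb in the Rnf40-/- libraries.

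Collagen receptors were represented by 4 alpha chains, of which 2 were lower and none higher. Itga11 (ENSMUSG00000032243, chromosome 9 of mm9, 62525633 to 62631789), a receptor for fibrillar collagens that is typical of fibroblasts, had 5796, 6317 and 6333 normalized counts in Rnf40+/+ and 2800.0, 2659 and 2719 in Rnf40-/- libraries, a log2 fold change of -1.17 ± 0.06 (SE; adjusted p = 7.03e-08). Its range with 1 library left out was narrow (-1.21 to -1.15). The fibroblast markers were lower as well, as given above for their sum, and their part in the fall of Itga11 and Itga5 was not tested. Itga1, a receptor for collagen IV and other collagens, went from 424 ± 37.1 to 311 ± 40.9 normalized counts (SD, n = 3 each) and was lower by a log2 fold change of -0.45 ± 0.12 (SE; adjusted p = 0.00782). Itga10, a collagen receptor of cartilage, had 222, 183 and 215 and 191, 262 and 217 and was not called (0.11, adjusted p = 0.573 from limma).

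The same windows are shown for the 2 most abundant chains that fell by more than 1 on the log2 scale, Itga5 at chr15:103366792-103367041 (minus strand) and Itga11 at chr9:62677605-62677854 (plus strand) of GRCm38.p6, with motif matches in capitals as above for Lama2 and Lamb3.
Itga5: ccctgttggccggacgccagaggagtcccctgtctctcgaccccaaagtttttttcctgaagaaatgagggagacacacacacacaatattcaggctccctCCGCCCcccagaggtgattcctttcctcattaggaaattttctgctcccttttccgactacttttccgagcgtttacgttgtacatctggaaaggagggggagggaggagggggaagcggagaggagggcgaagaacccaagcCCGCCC
Itga11: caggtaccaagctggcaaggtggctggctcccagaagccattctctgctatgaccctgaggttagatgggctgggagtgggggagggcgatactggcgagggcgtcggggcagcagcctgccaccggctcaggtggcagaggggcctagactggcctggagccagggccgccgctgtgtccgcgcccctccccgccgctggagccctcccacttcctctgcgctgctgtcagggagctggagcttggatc

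The window of Itga5 held 2 GC boxes, 1 of them next to the start, and no other motif, whereas that of Itga11 held none. Unlike these, Itgb6 had a CArG box 41 bases before 1 of its 2 listed starts.

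The alpha4 and alpha9 group, whose members bind VCAM1, fibronectin and tenascin, had 2 lower alpha chains and a higher beta chain. Itga4 (ENSMUSG00000027009, chromosome 2 of mm9, 79095583 to 79173280) showed 1479.7, 1591 and 1403 normalized counts in Rnf40+/+ and 853, 885 and 735 in Rnf40-/- libraries, a log2 fold change of -0.86 ± 0.09 (SE; adjusted p = 8.17e-06). Itga9 (ENSMUSG00000039115, chromosome 9 of mm9, 118515808 to 118810121) showed 265, 277 and 296 and 141, 124 and 134, a log2 fold change of -1.07 ± 0.12 (SE; adjusted p = 2.1e-05). Itgb7 (ENSMUSG00000001281, chromosome 15 of mm9, 102046426 to 102062366), which pairs with Itga4 or Itgae in the homing of lymphocytes to the gut, had 7.17, 4.08 and 5.59 normalized counts in Rnf40+/+ and 43.8, 42.8 and 55.7 in Rnf40-/- libraries. The log2 fold change of Itgb7 was 2.89 ± 0.35 (SE; adjusted p = 3.56e-05), and the smallest Rnf40-/- value was several times the largest Rnf40+/+ value.

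The integrin chains of leukocytes and platelets reached at most 519 normalized counts in a library, and 1 of the 7 was called. Itga2b (ENSMUSG00000034664, chromosome 11 of mm9, 102314611 to 102331436), the platelet fibrinogen receptor chain, had 72.8, 69.3 and 97.4 normalized counts in Rnf40+/+ and 156, 169 and 130.3 in Rnf40-/- libraries, a log2 fold change of 0.93 ± 0.18 (SE; adjusted p = 0.00124). Itgam had 519, 303 and 343 and 282, 292 and 325, Itgb2 had 74.0, 104 and 159.7 and 77.5, 76.2 and 92.5, and Itgal had 32.2, 40.8 and 17.6 and 10.2, 25.0 and 4.72 normalized counts, and these 3 chains of the leukocyte β2 integrins were not called (adjusted p = 0.121, 0.219 and 0.0563 from limma). Each was called lower in some fits with 1 library left out. This was the case for Itgb2 without Rnf40+/+ replicate 1, at -0.65 ± 0.21 (SE; adjusted p = 0.0232), and for Itgam without Rnf40+/+ replicate 2, at -0.50 (adjusted p = 0.0399 from limma). Itgal was called without Rnf40+/+ replicate 3, at -1.65 (adjusted p = 0.0212 from limma), or without Rnf40-/- replicate 2, at -1.88 (adjusted p = 0.0125 from limma). Other omissions made the change smaller. Itgb2 was at -0.10 without Rnf40+/+ replicate 3, Itgam at -0.11 without Rnf40+/+ replicate 1 and Itgal at -0.79 without Rnf40-/- replicate 3 (adjusted p = 0.729, 0.497 and 0.219 from limma). Itgad, Itgax and Itgb8 had 0 to 3, 6 to 15 and 2 to 9 reads per library and were not tested.

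Markers of other cell types were read beside these chains. Over all genes tested 23.3% were higher and 24.1% lower, and no excess is read from the counts of markers called. All 9 macrophage and leukocyte markers in the table had reads in each library, with a summed level of 1936 to 3248 normalized counts in Rnf40+/+ and 1722 to 1864 in Rnf40-/- libraries. The highest sum was that of Rnf40+/+ replicate 3, which also had the highest Itgb2, and of the 9 markers 2 were higher and 3 lower in Rnf40-/- MEFs. Ptprc, a marker of all leukocytes, went from 62.6 ± 14.8 to 160.3 ± 9.38 normalized counts and Tyrobp from 232 ± 96.8 to 68.1 ± 18.8 (SD, n = 3 each), so the list did not move in 1 direction. The 6 megakaryocyte and platelet markers had sums of 362 to 482 and 238 to 288, with Gp6 at 0 in every library. They moved both ways, as Gp1bb fell from 338 ± 35.5 to 111 ± 3.10 and Ppbp rose from 25.6 ± 6.24 to 117 ± 27.5 normalized counts (log2 fold changes -1.59 and 2.14, adjusted p = 1.24e-06 and 3.14e-05 from limma; SD, n = 3 each), and Ppbp thus had the direction of Itga2b. The 10 epithelial markers had sums of 463 to 816 and 617 to 862, which overlapped and were mostly Krt19 (502 ± 206 and 674 ± 138, not called). Of the 5 tested, Cldn4 was higher, from 6.10 ± 3.32 to 19.7 ± 0.263 normalized counts (log2 fold change 1.68, adjusted p = 0.012 from limma), and Krt5 and Krt14 were among the 4 not called. Epcam, a defining epithelial gene, had 0, 0 and 1.60 normalized counts in Rnf40+/+ and 4.08, 4.17 and 8.50 in Rnf40-/- libraries, and Trp63 had 3.58, 2.04 and 2.40 and 15.3, 21.9 and 7.55. Both were too low to be tested, and both were higher in Rnf40-/- libraries without overlap. Other markers had lower means in Rnf40-/- libraries. Krt8 went from 23.0 ± 31.0 to 5.06 ± 2.16 (not tested) and Krt18 from 23.0 ± 4.80 to 16.4 ± 6.97 normalized counts (not called; SD, n = 3 each). Both overlapped, so the epithelial list did not move in 1 direction. Cdh1 had 2.39, 4.08 and 3.19 and 7.14, 2.09 and 1.89 and overlapped. Of the 7 endothelial markers, with sums of 147 to 282 and 234 to 333, Cdh5, Kdr and Pecam1 were higher and Emcn lower, and Cldn5 did not exceed the limit of detection. The 5 markers of Schwann cells and neural crest had sums of 101 to 128 and 159.6 to 183, and S100b was higher. The part of such cells in the levels of Lama2, Lamb3, Itgb6, Itgb7 and Itga2b was not tested, and in bulk RNA fewer cells of a type and less RNA per cell cannot be told apart.

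Of 18 partners of laminin in the basement membrane 10 were higher, 7 lower and 1 not called, where 23.3% of all genes tested were higher and 24.1% lower. Collagen IV was split by chain, with Col4a1, Col4a2 and Col4a5 lower and Col4a3, Col4a4 and Col4a6 higher. Col4a5 fell from 4353 ± 167 to 3021.5 ± 241 normalized counts (log2 fold change -0.53, adjusted p = 8.2e-05 from limma; SD, n = 3 each). The main chains Col4a1 and Col4a2 fell from 25919 ± 1751 to 16870.2 ± 455 and from 26359 ± 1173 to 21174 ± 491 normalized counts (log2 fold changes -0.62 and -0.32, adjusted p = 2.95e-05 and 0.00262 from limma), whereas the rarer Col4a4 and Col4a6 rose from 14.2 ± 8.19 to 67.1 ± 8.14 and from 231 ± 23.9 to 554 ± 22.7 (log2 fold changes 2.32 and 1.26, adjusted p = 0.000472 and 1.78e-06 from limma; SD, n = 3 each). At the ends of the list outside collagen IV, Npnt, which encodes nephronectin, had a log2 fold change of 1.22 and Smoc1 of -1.15 (adjusted p = 1.52e-06 and 6.56e-06 from limma), and Agrn, the gene of agrin, was the one not called (0.06, adjusted p = 0.477). Further genes are named for their role, with their values known. The laminin binders Nid1 and Nid2, which link laminin to collagen IV, were both higher (log2 fold changes 0.21 and 0.50, adjusted p = 0.0463 and 0.000389 from limma). Laminin receptors other than integrins were higher as well, with Dag1, which encodes dystroglycan, at 0.44 and Bcam at 0.93 on the log2 scale (adjusted p = 0.00078 and 0.000432 from limma). Other partners fell, among them Hspg2 with a log2 fold change of -0.27 (adjusted p = 0.00774 from limma).

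Of 21 genes for proteins that bind integrin tails or partner with integrins, 20 were tested, 6 were higher and 10 lower, where 23.3% of all genes tested were higher and 24.1% lower. The kindlin genes Fermt2 and Fermt3, whose products activate integrins, had log2 fold changes of -0.74 and -1.11 (adjusted p = 1e-05 and 0.0117 from limma), and Fermt1 was not tested. Fermt3 was low and uneven, with 63.3, 72.4 and 150.9 normalized counts in Rnf40+/+ and 39.8, 32.4 and 51.9 in Rnf40-/- libraries. It was highest in Rnf40+/+ replicate 3, as was the sum of macrophage and leukocyte markers, and the part of such cells was not tested. Lims2, which encodes an adaptor of the integrin-linked kinase, had the largest fall of the list, from 329.6 ± 20.7 to 56.7 ± 2.72 normalized counts (-2.52, adjusted p = 7.26e-08 from limma), while Lims1, its paralog, had 0.07 (adjusted p = 0.44). Of the tetraspanin genes, Cd9 had a log2 fold change of 0.31 (adjusted p = 0.00351 from limma), with Cd81 lower (-1.17, adjusted p = 9.26e-08 from limma) and Cd151, the partner of laminin-binding integrins, higher (0.47, adjusted p = 0.000165 from limma).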

How the data were processed

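RNA-seq of 3 Rnf40+/+ and 3 Rnf40-/- MEF libraries was analyzed, grouped by the genotype in the sample labels. Per the study's methods and the submitters' processing notes, the authors mapped reads with Bowtie2 (2.1.0) to the mm9 transcriptome and normalized gene counts with DESeq (1.14.0). The deposited values are this signal, gene counts divided by 1 size factor per library. Reads were recovered from the smallest step of each library, and 100% of values came out whole within 0.01. Library depth was 17053436 to 26344170 reads. The chi-square per gene between libraries of a genotype was 5.38 to 29.1, which is above sampling noise, and all 6 libraries were kept as separate samples.

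Genes with low reads were removed with filterByExpr of edgeR (4.0.16), which left 16378 of 29955, and log2(normalized count + 1) was fitted with limma (3.58.1, trended eBayes) in R (4.3.3). P-values were adjusted by Benjamini-Hochberg over all genes tested, with a threshold of 0.05. Whole reads allowed count tests as alternatives, edgeR's quasi-likelihood fit (TMM) and the DESeq2 (1.42.0) Wald test. Other alternatives were TMM size factors, no filter, at least 10 reads in every library, pseudocounts of 0.1 and 10, a replicate block and leaving out each library. A log2 fold change above 1, the length by all annotated exons the ratio of Lamb1 to Lamc1 and the sum of Lamb1 with Lamb1-1 were added after seeing the data. Methods were tested on simulated data with the same low spread for all genes and with changes only in well expressed genes. Such data do not cover genes with few reads, such as Lamb3, or genes that vary between libraries, such as Itga3.

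Positions and lengths are from GENCODE M1 (mm9), which matched 36 of 36 genes described, and upstream sequences from RefSeq (GRCm38.p6). Strand setting of the authors' counting is not given in the sources used here. Opposite-strand genes cover 5.07% to 8.04% of the exon bases of Itga4, Itga8, Itgav, Itgb4 and Lamc3. No sequence is shown for Lama3, and 1 member is not reported here. Values per library are given for genes with an adjusted p under 0.05 and a log2 change above 1, for laminin chains and for laminin-binding integrin chains, and for examples of the other roles. The members, lists and tests were chosen with earlier results of these data known.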

Additional observations from a re-analysis of the deposited data

How the results depend on the processing

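Members called higher numbered 13 and ranged from 9 to 15 over the alternatives (11 to 15 with 1 library left out), and those called lower numbered 10 and ranged from 9 to 12. The 9 higher came with at least 10 reads in every library, which left Itgb6, Itgb7, Lama3 and Lamb3 untested. The 15 came without Rnf40+/+ replicate 1, a fit that adds Itga2 and Itgae and from which no rise is read (above). With a log2 fold change above 1 as well, a criterion chosen after seeing the data, 8 members were higher and 3 lower, and over all genes 840 were higher and 937 lower in place of 3809 and 3955. With 1 library left out, all genes called ranged from 3051 to 3817 higher and from 3342 to 3896 lower. The replicate numbers did not pair the libraries, since the correlation of same-numbered deviations was 0.0118 to 0.0212 and not every library correlated best with its own number. With the replicate block, 13 members were higher and 12 lower, adding Itgal and Itgb5.

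Directions reversed for 3 genes that were not called and for 1 ratio. Itga2 went from 0.09 to -0.56 with edgeR, -0.61 with DESeq2 and -0.0442 with a pseudocount of 10, and from -0.49 to 1.09 with 1 library left out. Itgae went from 0.57 to -0.16 with edgeR and -0.24 with DESeq2, and from -0.14 to 1.67 with 1 library left out. Itga10 ranged from -0.0159 (without Rnf40-/- replicate 2) to 0.21 with 1 library left out. The ratio of laminin-binding integrin alpha chains to laminin alpha chains, Rnf40-/- over Rnf40+/+, ranged from 0.748 to 1.04. The cause was not tested. A planned ratio was not run. Members with under 10 reads in a library, 9 of the 36, are limited by depth, and intervals for genes near the detection limit cover few reads.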
